A study of Mus musculus with 12 samples.

Results

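The T cell and cytotoxic lymphocyte genes described here are 10 of the 22180 genes measured in mouse colon. They are Cd3e, Cd4, Cd8a, Cd8b1, Gzma, Gzmb, Prf1, Nkg7, Klrd1 and Itgae. Each was chosen by name and represented by the probe set for which the platform annotation gives exactly 1 symbol. Each of the 10 had 1 such probe set, so none had to be picked among several, and 1 further probe set that lists Prf1 beside another symbol was not used. No filter on dim signals was applied, and all 10 were tested.

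Total RNA of the colon was hybridised to Affymetrix whole-transcript arrays, 1 array per sample, with 3 arrays for each of 4 genotypes. The genotypes were WT (IL10+/+ STING+/+), SKO (IL10+/+ STING-/-), IL10KO (IL10-/- STING+/+) and DKO (IL10-/- STING-/-). The labels state no treatment, and for age, sex and the layer or segment of colon there was no entry. Nothing in them says that the 3 samples of a genotype were separate animals, and p-values therefore speak to the spread between these samples, which may be technical. Values are log2 signals, so a difference of 1 is a doubling, and array medians lay between 4.80 and 5.02. Replicate numbers only name the samples.

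Interleukin-10 dampens immune responses in the gut, and its loss in mice leads to colitis in which T cells take part. STING, encoded by Sting1, is an adaptor that signals the presence of cytosolic DNA and switches on interferon genes. T cells recognise antigen through a receptor that carries the CD3 chains. Helper T cells bear the coreceptor CD4 and cytotoxic T cells bear CD8, while natural killer cells kill without an antigen-specific receptor. Both kinds of killer cell store granzymes and the pore-forming protein perforin in granules that they release onto a target. Lymphocytes that live within the gut epithelium carry the integrin chain CD103, the product of Itgae, which binds E-cadherin on epithelial cells. In RNA of a whole tissue, fewer cells of a type and less RNA per cell cannot be told apart.

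Upstream windows are printed for Gzma and Gzmb, the members with the largest differences among the granule genes, and for Cd8a, a T cell gene outside the granules. Each runs over the 250 bases before the annotated start of the gene, is written 5′ to 3′ on the strand of the gene, and comes from RefSeq on GRCm38.p6. Capitals mark matches to the RUNX core TGTGGT, or to its reverse complement ACCACA. RUNX proteins are transcription factors of T cell and killer cell genes. The windows lie at chr13:113100982-113101231 on the minus strand for Gzma, at chr14:56262335-56262584 on the minus strand for Gzmb and at chr6:71373177-71373426 on the plus strand for Cd8a.
Gzma: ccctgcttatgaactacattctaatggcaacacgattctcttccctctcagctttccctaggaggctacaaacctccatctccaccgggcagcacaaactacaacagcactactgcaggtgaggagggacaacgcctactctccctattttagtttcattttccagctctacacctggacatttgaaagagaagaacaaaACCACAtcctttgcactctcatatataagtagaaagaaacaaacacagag
Gzmb: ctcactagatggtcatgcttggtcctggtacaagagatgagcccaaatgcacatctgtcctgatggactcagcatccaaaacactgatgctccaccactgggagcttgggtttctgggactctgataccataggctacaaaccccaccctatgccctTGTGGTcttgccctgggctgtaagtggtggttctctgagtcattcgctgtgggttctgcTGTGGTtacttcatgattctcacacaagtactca
Cd8a: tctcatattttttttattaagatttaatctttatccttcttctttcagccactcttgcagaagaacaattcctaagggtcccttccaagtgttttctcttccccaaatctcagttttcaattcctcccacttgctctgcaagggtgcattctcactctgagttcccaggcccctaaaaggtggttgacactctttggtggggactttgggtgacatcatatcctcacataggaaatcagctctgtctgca
The Gzma window holds 1 RUNX core match, 50 to 45 bases before the start, as the reverse complement. The Gzmb window holds 2, at 93 to 88 and at 34 to 29 bases before the start, both in the direction of the gene, with an AP-1 match (TGANTCA) between them at 58 to 52. The Cd8a window holds no match to the RUNX core, to the T-box core GGTGTNA, to the AP-1 site or to the ETS core GGAAGT, and 2 to the E-box CANNTG. Among the other members with a window, Nkg7 has 1 RUNX core and 1 T-box core match, Prf1 has 1 RUNX core match and Cd3e has neither. Both strands were searched, no marked match overlaps another, and 6 of the 10 members had a window. Of all 32851 windows of this length, 14% hold a RUNX core, 8.61% a T-box core, 6.75% an AP-1 site, 19.7% an ETS core and 66.2% an E-box. A match is a run of letters and not evidence of binding.

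Each of the 3 WT libraries stood apart in some measure. Values for the 10 genes without one or another of them are given beside those from all arrays, and for other genes the calls that were lost are counted. Sting1 was at 7.51, 6.40 and 4.56 in WT, and the library labelled WT replicate 3 lay near the STING-/- libraries, which spanned 4.13 to 4.40. The IL10KO libraries had Sting1 at 6.87 to 8.09. Il10 was higher, not lower, in IL10-/- libraries (4.33 to 5.47) than in IL10+/+ libraries (3.59 to 3.82). Its average IL-10 effect was 1.02 (limma adjusted p = 0.00123). No source used here places its probe set relative to the deleted part, and Il10 therefore checks no label. WT replicate 1 had the highest mean of the 10 measured B cell markers of all arrays, 6.46 against 4.70 to 5.85 in the other 11, and of the 10 mast cell markers, 5.51 against 3.68 to 4.47. It also had the highest signal of the 3 WT libraries for all 10 lymphocyte genes. WT replicates 1 and 2 carried pancreatic enzyme signal, with a mean over 14 acinar markers of 8.38 and 11 against 4.76 to 5.59 elsewhere.

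No lymphocyte gene passed limma's test at a Benjamini-Hochberg adjusted p under 0.05, over all genes, in any of the 8 comparisons with all arrays. In IL10KO against WT, where 8.14% of all genes were called, Gzma, Cd3e, Gzmb and Klrd1 had the largest differences. In DKO against IL10KO, where 5.79% of all genes were called, the same 4 genes had the largest differences with the opposite sign. Prf1 and Itgae differed least in both. The mean was highest in IL10KO for 9 of the 10 genes, all but Prf1. The plot of the 10 genes by array shows these levels.

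**Figure D1:**
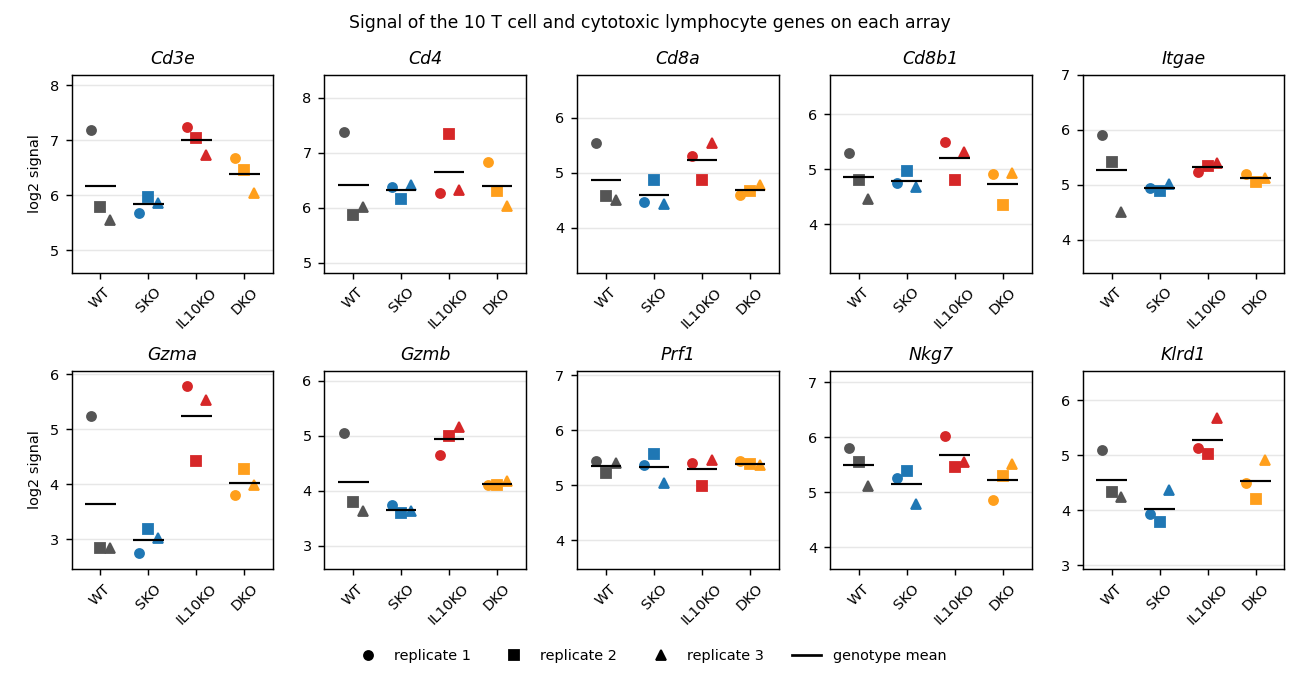
Log2 signal (vertical axis) of each of the 10 genes on the 12 arrays, by genotype, with a line at the genotype mean and a marker shape per replicate. WT replicate 1 lies above the other WT arrays for every gene, most for Gzma, where it read 5.23 against 2.84 in both others.

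Cd3e encodes CD3 epsilon, a signalling chain that every T cell receptor needs. Its signal was 7.19, 5.79 and 5.55 in WT, 5.68, 5.97 and 5.87 in SKO, 7.25, 7.04 and 6.74 in IL10KO and 6.67, 6.45 and 6.05 in DKO. All 3 IL10KO arrays lay above all 3 DKO arrays, and all 3 DKO arrays above all 3 SKO arrays, while WT replicate 1 lay within the IL10KO range. The order of means was IL10KO, DKO, WT and SKO, and the ranges of DKO and WT and of WT and SKO overlapped. The difference was 0.84 ± 0.33 (SE, n = 3 per genotype, limma adjusted p = 0.125) in IL10KO against WT. In DKO against IL10KO it was -0.62 ± 0.33 (limma adjusted p = 0.261).

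Cd4 encodes the coreceptor of helper and regulatory T cells and is also transcribed in some myeloid cells. It read 7.37, 5.87 and 6.0 in WT, 6.37, 6.15 and 6.42 in SKO, 6.26, 7.34 and 6.33 in IL10KO and 6.83, 6.30 and 6.02 in DKO. Single arrays stood out in WT (replicate 1) and in IL10KO (replicate 2), and all 4 genotypes overlapped. The largest mean difference along the order IL10KO, WT, DKO and SKO was within the spread between arrays. IL10KO minus WT was 0.23 (95% interval -0.56 to 1.02, limma adjusted p = 0.720).

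Cd8a and Cd8b1 encode the alpha and beta chains of CD8. The alpha chain also forms a homodimer on intraepithelial lymphocytes, whereas the beta chain marks conventional cytotoxic T cells. Cd8a read 5.55, 4.58 and 4.50 in WT, 4.47, 4.86 and 4.42 in SKO, 5.31, 4.86 and 5.53 in IL10KO and 4.60, 4.66 and 4.78 in DKO. Every DKO array lay below every IL10KO array, though the IL10KO array nearest to them differed from the highest DKO array by less than the spread within IL10KO. Cd8b1 read 5.29, 4.79 and 4.46 in WT, 4.75, 4.96 and 4.67 in SKO, 5.50, 4.80 and 5.30 in IL10KO and 4.91, 4.34 and 4.93 in DKO. It showed the same high arrays as Cd8a, WT replicate 1 and IL10KO replicates 1 and 3, and its 4 genotypes overlapped. IL10KO minus WT was 0.36 ± 0.25 for Cd8a (SE, limma adjusted p = 0.382) and 0.35 ± 0.23 for Cd8b1 (SE, limma adjusted p = 0.356). DKO minus IL10KO was -0.55 ± 0.25 for Cd8a (SE, limma adjusted p = 0.195) and -0.47 ± 0.23 for Cd8b1 (SE, limma adjusted p = 0.231).

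Gzma encodes granzyme A, a tryptase of killer cell granules, and varied most of the 10 genes, over 3.04 log2 units. It read 5.23, 2.84 and 2.84 in WT, 2.74, 3.19 and 3.03 in SKO, 5.78, 4.42 and 5.53 in IL10KO and 3.80, 4.28 and 3.99 in DKO. Without WT replicate 1 the genotypes fall into 3 bands: WT with SKO, then DKO, then IL10KO. The WT and SKO readings other than WT replicate 1 lay below the lower quartile of signals on any array (3.45 to 3.72). The deposited table carries no detection calls, so such dim readings can be neither called absent nor given a floor. IL10KO minus WT was 1.61 ± 0.51 (SE, 95% interval 0.51 to 2.70, limma adjusted p = 0.0681). DKO minus SKO was 1.04 ± 0.51 (SE, limma adjusted p = 0.998), and DKO minus IL10KO was -1.22 ± 0.51 (SE, limma adjusted p = 0.163).

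Gzmb encodes granzyme B, which triggers apoptosis in a target cell. It read 5.06, 3.80 and 3.64 in WT, 3.74, 3.60 and 3.64 in SKO, 4.66, 5.01 and 5.17 in IL10KO and 4.10, 4.10 and 4.17 in DKO. The DKO arrays lay close together, above every SKO array and below every IL10KO array. IL10KO minus WT was 0.78 ± 0.28 (SE, limma adjusted p = 0.0979), DKO minus IL10KO was -0.82 ± 0.28 (SE, limma adjusted p = 0.0974) and DKO minus SKO was 0.47 ± 0.28 (SE, limma adjusted p = 0.998).

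Prf1 encodes perforin, and Nkg7 a membrane protein of the same granules. Prf1 read 5.44, 5.21 and 5.40 in WT, 5.36, 5.57 and 5.04 in SKO, 5.41, 4.98 and 5.46 in IL10KO and 5.43, 5.38 and 5.36 in DKO. All 12 arrays lay within 0.59 log2 units, the smallest range of the 10 genes, and no genotype separated from another. The 95% interval of DKO minus IL10KO ran from -0.25 to 0.46, and IL10KO minus WT was -0.07 ± 0.16 (SE, limma adjusted p = 0.819). Nkg7 read 5.81, 5.56 and 5.11 in WT, 5.26, 5.39 and 4.79 in SKO, 6.02, 5.46 and 5.55 in IL10KO and 4.86, 5.30 and 5.52 in DKO. Its genotypes overlapped, IL10KO minus WT was 0.19 ± 0.23 (SE, limma adjusted p = 0.635), and DKO minus IL10KO was -0.46 (limma adjusted p = 0.245).

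Klrd1 encodes CD94, which pairs with NKG2 chains on natural killer cells and some cytotoxic T cells. It read 5.09, 4.32 and 4.24 in WT, 3.93, 3.79 and 4.37 in SKO, 5.12, 5.03 and 5.68 in IL10KO and 4.50, 4.20 and 4.92 in DKO. All 3 IL10KO arrays lay above all DKO and SKO arrays, and WT replicate 1 lay within the IL10KO range. IL10KO minus WT was 0.73 ± 0.26 (SE, limma adjusted p = 0.0969), and DKO minus IL10KO was -0.74 ± 0.26 (SE, limma adjusted p = 0.106). Itgae read 5.91, 5.42 and 4.50 in WT, 4.94, 4.90 and 5.01 in SKO, 5.24, 5.35 and 5.39 in IL10KO and 5.20, 5.06 and 5.12 in DKO. Outside WT it varied little within a genotype, with an SD between 0.06 and 0.08, whereas the 3 WT arrays spread over the whole range of the 12. IL10KO minus WT was 0.05 ± 0.25 (SE, limma adjusted p = 0.925) for Itgae.

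Counts over the 10 genes read as follows with all arrays. In IL10KO against WT, 4 of 10 were higher at an unadjusted p under 0.05 (Cd3e, Gzma, Gzmb and Klrd1), where 11.6% of all genes were, and the median difference was 0.36 against 0.03 over all genes. No gene of the 10 had all 3 IL10KO arrays above all 3 WT arrays, where 14% of all genes did. In DKO against IL10KO, 4 of 10 were lower at an unadjusted p under 0.05 (Cd8a, Gzma, Gzmb and Klrd1), where 11.8% of all genes were, with a median of -0.51 against -0.04. All 3 DKO arrays lay below all 3 IL10KO arrays for 6 genes (Cd3e, Cd8a, Gzma, Gzmb, Klrd1 and Itgae), where 13.8% of all genes did so. IL10KO arrays enter both comparisons, so an IL10KO mean that happens to be high raises the first and lowers the second.

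In DKO against SKO, 0.0451% of all genes were called, and none of the 10 had an unadjusted p under 0.05, where 4.77% of all genes did. Nonetheless all 3 DKO arrays lay above all 3 SKO arrays for Cd3e, Gzma, Gzmb and Itgae, 4 of 10, where 4.87% of all genes did so. The median difference was 0.14 against -0.03 over all genes. In SKO against WT limma called 0 of 22180 genes (454 at an unadjusted p under 0.05, which is 2.05%), and none of the 10 passed even unadjusted. All 10 differences were below 0, where 53.3% of all genes were above it, and lay between -0.65 and -0.03 with a median of -0.33. Without WT replicate 1 the median was 0.03, with 6 of 10 above 0. Omitting WT replicate 2 instead gave a median of -0.41, and omitting WT replicate 3 gave -0.59. In both of these fits 0 of 10 differences were above 0. In DKO against WT, 0.0451% of all genes were called, and the median over the 10 was -0.03 with all arrays. Dropping WT replicate 1 moved this median to 0.21, with 9 of 10 above 0. Dropping WT replicate 2 moved it to -0.14 and dropping WT replicate 3 to -0.27, each with 1 of 10 above 0. For SKO and for DKO against WT, the sign of the median therefore depended on which WT array was left out.

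Averaged over both STING genotypes, the effect of IL-10 loss had 2.73% of all genes called and none of the 10. The smallest adjusted p among them was that of Gzma (1.32 ± 0.36, SE, limma adjusted p = 0.0697), followed by Klrd1 (0.62 ± 0.18, SE, limma adjusted p = 0.0878). At an unadjusted p under 0.05, 4 of 10 were higher (Cd3e, Gzma, Gzmb and Klrd1), where 6.98% of all genes were. Averaged over both IL-10 genotypes, the effect of STING loss had 0.694% of all genes called and again none of the 10. There, 5 of 10 were lower at an unadjusted p under 0.05, where 5.57% of all genes were. The largest of these differences were those of Gzma (-0.94 ± 0.36, SE, limma adjusted p = 0.300), Gzmb (-0.66 ± 0.20, SE, limma adjusted p = 0.162) and Klrd1 (-0.63 ± 0.18, SE, limma adjusted p = 0.150). The median over the 10 was -0.41. Without WT replicate 1 it was -0.24 and the lowest member difference -0.54, and without the library labelled WT replicate 3 the median was -0.51, with none of the 10 called in either case. Whether the IL-10 effect differed with STING genotype was tested directly, with 0.645% of all genes called. None of the 10 passed, with limma adjusted p between 0.537 and 0.896 and a median of -0.24 against -0.04 over all genes. That median was -0.62 without WT replicate 1 and -0.01 without the library labelled WT replicate 3.

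Without WT replicate 1, Gzma, Gzmb, Cd3e and Klrd1 rose in IL10KO against WT, 4 of 10, where 4.48% of all genes were called and 1.94% rose. The Gzma difference was 2.40 ± 0.31 (SE, 2 WT against 3 IL10KO arrays, limma adjusted p = 0.00121), without a fold since both WT readings were dim, and Gzmb was 2.34-fold higher (1.23 ± 0.16, SE, limma adjusted p = 0.00142). Cd3e was 2.53-fold higher (1.34 ± 0.21, SE, limma adjusted p = 0.00349), and Klrd1 was 1.99-fold higher (0.99 ± 0.25, SE, limma adjusted p = 0.0401). The 3 IL10KO arrays then lay above both WT arrays for 7 of the 10 genes, all but Prf1, Nkg7 and Itgae, where 18.2% of all genes did. Cd8a differed by 0.70 (limma adjusted p = 0.0715) and Cd4 by 0.71 (limma adjusted p = 0.200), and Prf1 stayed at -0.02 (95% interval -0.43 to 0.39, limma adjusted p = 0.959). Because that array was the highest of WT for all 10 genes, leaving it out lowers the WT mean of each of them and narrows their spread. The calls without it therefore depend on a choice of array that was made with these values seen. Whether the B cell, mast cell or pancreatic signal of WT replicate 1 moves with its lymphocyte signal for a shared reason was not tested.

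The same omission left the means of DKO and IL10KO as they were, but reduced the spread pooled over genotypes. Gzma (-1.22 ± 0.28, SE, limma adjusted p = 0.0270) and Gzmb (-0.82 ± 0.15, SE, limma adjusted p = 0.00816) then fell in DKO against IL10KO, 2 of 10, where 4.94% of all genes were called and 2.13% fell. Gzma was 2.33-fold lower and Gzmb 1.76-fold lower. Cd3e (limma adjusted p = 0.0752), Klrd1 (limma adjusted p = 0.0775) and Cd8a (limma adjusted p = 0.0966) did not pass. The average IL-10 effect was then called for Gzma (1.72, limma adjusted p = 0.000912), Gzmb (0.85, limma adjusted p = 0.00131), Cd3e (0.95, limma adjusted p = 0.00320) and Klrd1 (0.75, limma adjusted p = 0.0346), 4 of 10, where 2.36% of all genes were called. With all arrays these 4 had limma adjusted p between 0.0697 and 0.129. Leaving out WT replicate 2 or WT replicate 3 instead called 0 of the 10 in this effect. The test of whether the IL-10 effect differed with STING still called none of the 10 (0.329% of all genes), with -1.37 ± 0.42 for Gzma (SE, limma adjusted p = 0.242).

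**Figure D2:**
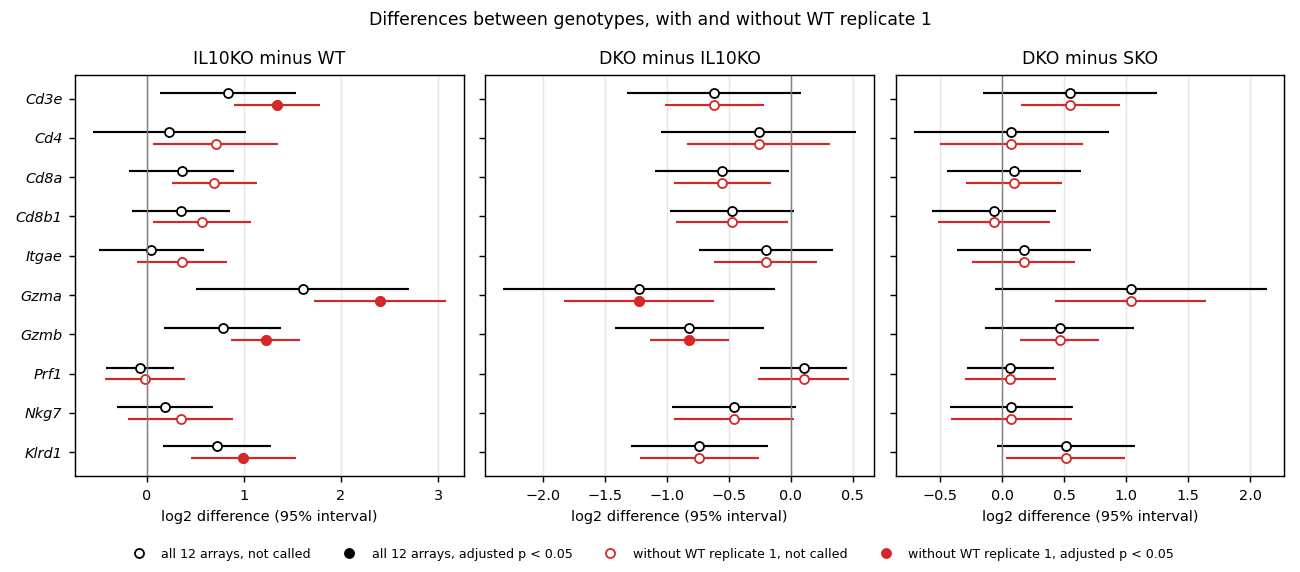
Log2 difference (horizontal axis) of each gene in IL10KO minus WT, DKO minus IL10KO and DKO minus SKO, with 95% intervals, from all 12 arrays (black) and without WT replicate 1 (red); filled points passed limma's test. No black point is filled, and the red filled points are Gzma, Gzmb, Cd3e and Klrd1 in the first panel and Gzma and Gzmb in the second.

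Without the library labelled WT replicate 3, none of the 10 was called in IL10KO against WT or in DKO against IL10KO. Gzma in IL10KO against WT was then 1.21 (limma adjusted p = 0.216), Cd3e 0.52 (limma adjusted p = 0.377), Gzmb 0.52 (limma adjusted p = 0.308) and Klrd1 0.57 (limma adjusted p = 0.271). With WT replicates 1 and 3 both left out, so that 1 WT array remained and was assumed to vary like the other groups, Gzma (2.40, limma adjusted p = 0.0115), Gzmb (1.15, limma adjusted p = 0.0215) and Cd3e (1.22, limma adjusted p = 0.0468) rose. Klrd1 was at 0.95 (limma adjusted p = 0.222) there. The array of IL10KO with the lowest Gzma mattered as well. Without IL10KO replicate 2, Gzma rose in IL10KO against WT (2.02, limma adjusted p = 0.0300) and in the average IL-10 effect (1.53, limma adjusted p = 0.0315), and no other member was called. Leaving out any of the other 9 arrays called none of the 10 in these comparisons. Among these 9 was WT replicate 2, which carried the highest pancreatic signal. Without it, IL10KO minus WT was 1.21 for Gzma (limma adjusted p = 0.221) and 0.64 for Cd3e (limma adjusted p = 0.32). Gzmb was then at 0.60 (limma adjusted p = 0.278), Klrd1 at 0.61 (limma adjusted p = 0.249) and Cd4 at -0.04 (limma adjusted p = 0.957).

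Within an array, the difference between 2 genes of the list shows whether they changed unequally, free of the scaling of that array. Of 9 such differences, none differed between the 6 IL-10-deficient and 6 IL-10-proficient arrays after Benjamini-Hochberg adjustment, in an exact 2-sided permutation test within STING genotype, whose smallest possible p is 0.005. The smallest p was that of Itgae minus Cd3e, which was 0.58 lower in IL-10-deficient arrays (-0.58, exact permutation p = 0.015, adjusted p = 0.112). Itgae minus Cd3e read -1.27, -0.37 and -1.04 in WT, -0.74, -1.08 and -0.86 in SKO, -2.01, -1.69 and -1.35 in IL10KO and -1.47, -1.39 and -0.93 in DKO. It was lower in every IL10KO array than in every WT array, and the DKO and SKO arrays overlapped. Prf1 minus Cd3e differed by -0.69 (exact permutation p = 0.045, adjusted p = 0.112), Gzma minus Gzmb by 0.70 (exact permutation p = 0.045, adjusted p = 0.112) and Gzma minus Cd3e by 0.63 (exact permutation p = 0.05, adjusted p = 0.112). Nkg7 minus Cd3e differed by -0.56 (exact permutation p = 0.08, adjusted p = 0.144). Gzmb minus Cd3e (-0.07), Klrd1 minus Cd3e (-0.07), Cd8b1 minus Cd8a (-0.08) and Cd8a minus Cd4 (0.08) had exact permutation p between 0.58 and 0.8.

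**Figure D3:**
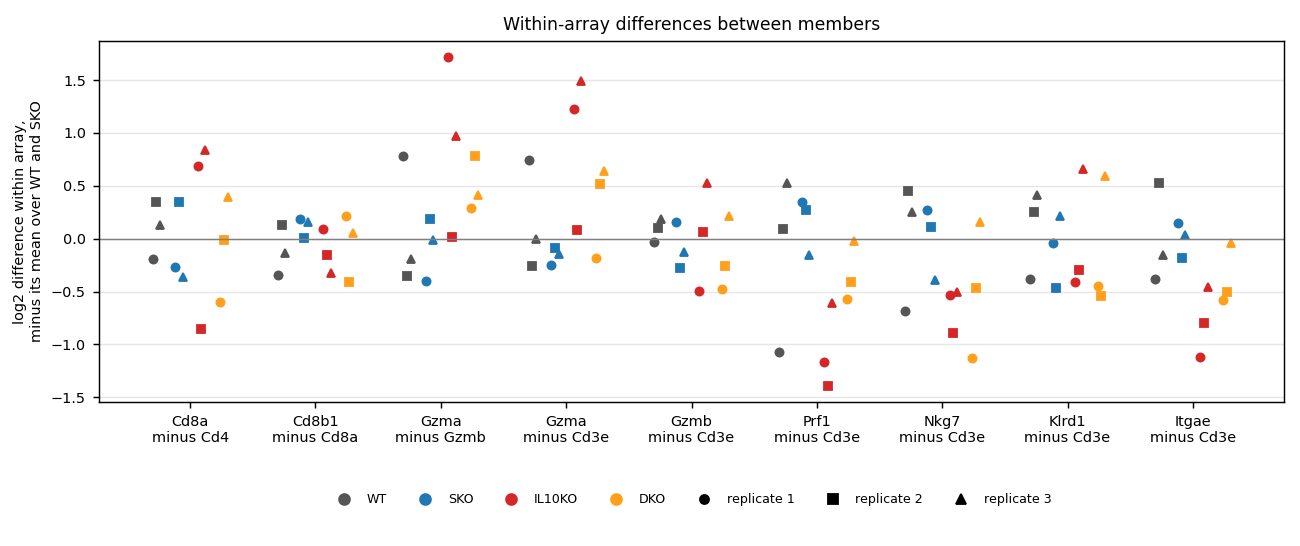
Log2 difference between 2 genes of the same array (vertical axis), minus its mean over the WT and SKO arrays, for 9 pairs and 12 arrays, with colour for genotype and shape for replicate. Itgae minus Cd3e and Prf1 minus Cd3e lie below 0 in all IL-10-deficient arrays, but IL-10-proficient arrays lie among these for both. WT replicates 1 and 3 and SKO replicate 2 lie below DKO replicate 3 for Itgae, and WT replicate 1 and SKO replicate 3 do for Prf1.

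Over the 12 arrays, the 36 pairs among the 9 genes other than Prf1 had Pearson correlations between 0.07 and 0.91 with a median of 0.67, highest for Cd3e with Gzma. The 9 pairs with Prf1 lay between -0.26 and 0.38 with a median of 0.04. Without WT replicate 1 the pairs other than those with Prf1 ran from -0.21 (Cd4 with Nkg7) to 0.90 (Gzmb with Klrd1), Cd4 with Cd8a went from 0.36 to 0.06, and the pairs with Prf1 ran from -0.47 to 0.33. The arrays share genotype and the high WT replicate 1, and these correlations describe them with no test. The genes with the pattern most like Cd3e over the 12 arrays were Cd96, a receptor of T and natural killer cells (r = 0.957), Cxcl10, an interferon-induced chemokine (r = 0.925), and Map4k1, a kinase of lymphocytes (r = 0.920). Those most like Gzma were Map4k1 (r = 0.963), Nip7 (r = 0.955) and the chemokine Cxcl9 (r = 0.954), and those most like Gzmb were Fli1 (r = 0.956), Cd7 (r = 0.954) and Gimap4 (r = 0.954).

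Cd8a was most like the cytokine receptors Il21r (r = 0.931) and Il27ra (r = 0.918) and Scimp (r = 0.903), and Cd8b1 was most like Gpr182 (r = 0.876), Batf3 (r = 0.873) and Klrc2 (r = 0.869). Klrd1 was most like Ifi205 (r = 0.966), Irf8 (r = 0.931) and Slamf8 (r = 0.926), and Itgae was most like Slfn5 (r = 0.937), Tap2 (r = 0.893) and Gbp5 (r = 0.878). Nkg7 was most like Serpina10 (r = 0.958), Tekt2 (r = 0.931) and the cytokine gene Ifng (r = 0.905). Cd4 was most like Pipox (r = 0.923), Grina (r = 0.897) and Vwa5a (r = 0.889), and Prf1 was most like Gabre (r = 0.873), Macroh2a2 (r = 0.866) and C1qtnf4 (r = 0.844). All of these were picked as the highest r among the many genes measured. Whether such an r exceeds the highest found for unrelated genes was not tested. Without WT replicate 1, r fell to 0.83 for Cd4 with Vwa5a and to 0.79 for Itgae with Tap2, and rose to 0.92 for Cd8b1 with Gpr182.

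Beside the 10 genes, 7 lists covered T cells, killer cells, innate lymphoid cells and lymphocyte retention and homing, with factors that act on lymphocytes, such as Il15. They held 115 other genes, of which 96 were measured. In IL10KO against WT, 13 of these rose and 1 fell, 13.5% and 1.04%, where 3.12% of all genes rose and 5.01% fell, with a median of 0.26 against 0.03 over all genes. In DKO against IL10KO, 6 fell and 1 rose, 6.25% and 1.04%, where 2.45% of all genes fell and 3.34% rose, with a median of -0.28. Of the 14 calls in IL10KO against WT, 9 remained without WT replicate 1, 4 without WT replicate 2 (Ctla4, Il15, Klrb1c and Prdm1) and 4 without the library labelled WT replicate 3 (Cxcr6, Il15, Klrb1c and Prdm1). The 10 lost in the last case had limma adjusted p between 0.0612 and 0.178. With all arrays, none of the 96 passed in DKO against SKO, SKO against WT, DKO against WT, the average STING effect or the difference of the IL-10 effects. The plot of gene lists by array shows their mean signals beside those of other cell types.

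Of 13 measured genes of the T cell receptor complex and its proximal signalling, 2 rose in IL10KO against WT, both CD3 chains: Cd3g (1.39, limma adjusted p = 0.0437) and Cd3d (0.76, limma adjusted p = 0.0495). Cd3g averaged 5.42 ± 1.01 in WT and 6.81 ± 0.62 in IL10KO (SD, n = 3), and DKO lay at 5.85 ± 0.02. The Cd3d call was lost in 9 of the 12 omissions of single arrays and the Cd3g call in 8. Of 14 surface and costimulatory receptors, 3 rose: Ctla4, an inhibitory receptor of activated and regulatory T cells (0.82, limma adjusted p = 0.0152), Icos, a costimulator (0.63, limma adjusted p = 0.0218), and Cd96 (0.62, limma adjusted p = 0.0484). Ctla4 (-0.87, limma adjusted p = 0.0149) and Icos (-0.54, limma adjusted p = 0.0472) fell in DKO against IL10KO. Ctla4 lay between 4.15 and 4.87 in IL10KO and between 3.43 and 3.94 in the WT, SKO and DKO arrays. The Cd96 call was lost in 10 omissions, the Ctla4 call in 2 and the Icos call in 3 for IL10KO against WT, and for DKO against IL10KO the Ctla4 call was lost in 3 and the Icos call in 9.

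Of 20 further granule and effector genes, 2 rose in IL10KO against WT: Ccl5, a chemokine stored by killer cells (1.62, limma adjusted p = 0.0244), and Srgn, the granule proteoglycan serglycin that myeloid and mast cells also make (0.94, limma adjusted p = 0.0247). Ccl5 averaged 6.24 ± 1.18 in WT, 5.77 ± 0.10 in SKO, 7.86 ± 0.18 in IL10KO and 7.0 ± 0.19 in DKO (SD, n = 3). Its IL10KO arrays lay above all WT arrays and its DKO arrays above all SKO arrays. Without WT replicate 1 the Ccl5 difference was 2.29 (limma adjusted p = 4.03e-05). Ccl5 was then also called in DKO against SKO (1.23, limma adjusted p = 0.00909), DKO against WT (1.43, limma adjusted p = 0.00752) and DKO against IL10KO (-0.86, limma adjusted p = 0.00987). Srgn was called there in DKO against IL10KO (-0.72, limma adjusted p = 0.0401). With all arrays none of these 4 passed. Ccl5 in DKO against WT was then 0.76. The differences without WT arrays were the same with all arrays, at limma adjusted p of 0.798 (Ccl5, DKO against SKO), 0.199 (Ccl5, DKO against IL10KO) and 0.0767 (Srgn). Only the pooled spread had changed for them. The Ccl5 call was lost in 3 of 12 omissions, with the largest limma adjusted p, 0.0976, without WT replicate 2, and the Srgn call was lost in 4.

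Of 17 natural killer cell receptor genes, 3 rose in IL10KO against WT: Klrb1c, which encodes NK1.1 (1.0, limma adjusted p = 0.0137), and Tyrobp (0.96, limma adjusted p = 0.0326) and Fcgr3 (0.74, limma adjusted p = 0.0401), an adaptor and an Fc receptor that myeloid cells carry too. Tyrobp (-1.07, limma adjusted p = 0.0257) and Fcgr3 (-0.82, limma adjusted p = 0.0325) fell in DKO against IL10KO, and so did Klra9 (-0.82, limma adjusted p = 0.0114), a Ly49 family receptor named after its values were seen, whose arrays read 2.77 at most. Klrb1c was at 3.01 ± 0.18 in WT, 3.51 ± 0.14 in SKO, 4.01 ± 0.51 in IL10KO and 3.37 ± 0.22 in DKO (SD, n = 3). The Klrb1c call was lost in 1 omission, that of WT replicate 1 (limma adjusted p = 0.0515). For IL10KO against WT the Tyrobp call was lost in 4 omissions and the Fcgr3 call in 8, and for DKO against IL10KO in 3 and 4.

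Of 17 genes of lymphocyte retention and homing, 2 rose in IL10KO against WT: Cxcr6, a chemokine receptor of tissue lymphocytes (0.68, limma adjusted p = 0.0161), and S1pr1, the receptor for lymphocyte egress that blood vessels also express (0.55, limma adjusted p = 0.0438). Il15, a cytokine that sustains intraepithelial and natural killer lymphocytes, fell by 1.48 on the log2 scale (limma adjusted p = 0.00370), 2.79-fold. It rose in DKO against IL10KO (1.04, limma adjusted p = 0.0286). Il15 averaged 7.18 ± 0.35 in WT, 6.84 ± 0.35 in SKO, 5.70 ± 0.44 in IL10KO and 6.74 ± 0.29 in DKO (SD, n = 3), and every IL10KO array lay below the 9 others. Its call in IL10KO against WT held in all 12 omissions, while that in DKO against IL10KO was lost in 3, with the largest limma adjusted p, 0.132, without DKO replicate 1. S1pr1 also fell in DKO against IL10KO (-0.56, limma adjusted p = 0.0481), and its calls were each lost in 10 omissions, whereas that of Cxcr6 was lost in 1.

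Of 9 lineage transcription factors, Prdm1, which encodes Blimp-1 of effector lymphocytes and plasma cells and also of epithelial cells, rose in IL10KO against WT (0.82, limma adjusted p = 0.00937), in all 12 omissions. None of 7 innate lymphoid markers passed. In the average IL-10 effect 5 of the 96 genes rose, Ccl5 (1.43, limma adjusted p = 0.0162), Cd3g (1.22, limma adjusted p = 0.0333), Cxcr6 (0.58, limma adjusted p = 0.0116), Prdm1 (0.56, limma adjusted p = 0.0229) and Icos (0.44, limma adjusted p = 0.0411), 5.21% where 1.10% of all genes did. Il15 (-0.79, limma adjusted p = 0.0326) and Ahr (-0.45, limma adjusted p = 0.0460) fell, 2.08% where 1.63% of all genes did. The Ahr and Icos calls were lost in 10 omissions each, that of Cd3g in 8, Il15 in 6, Prdm1 in 4, Ccl5 in 1 and Cxcr6 in 0, and without WT replicate 1 the counts were 10 and 0.

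**Figure D4:**
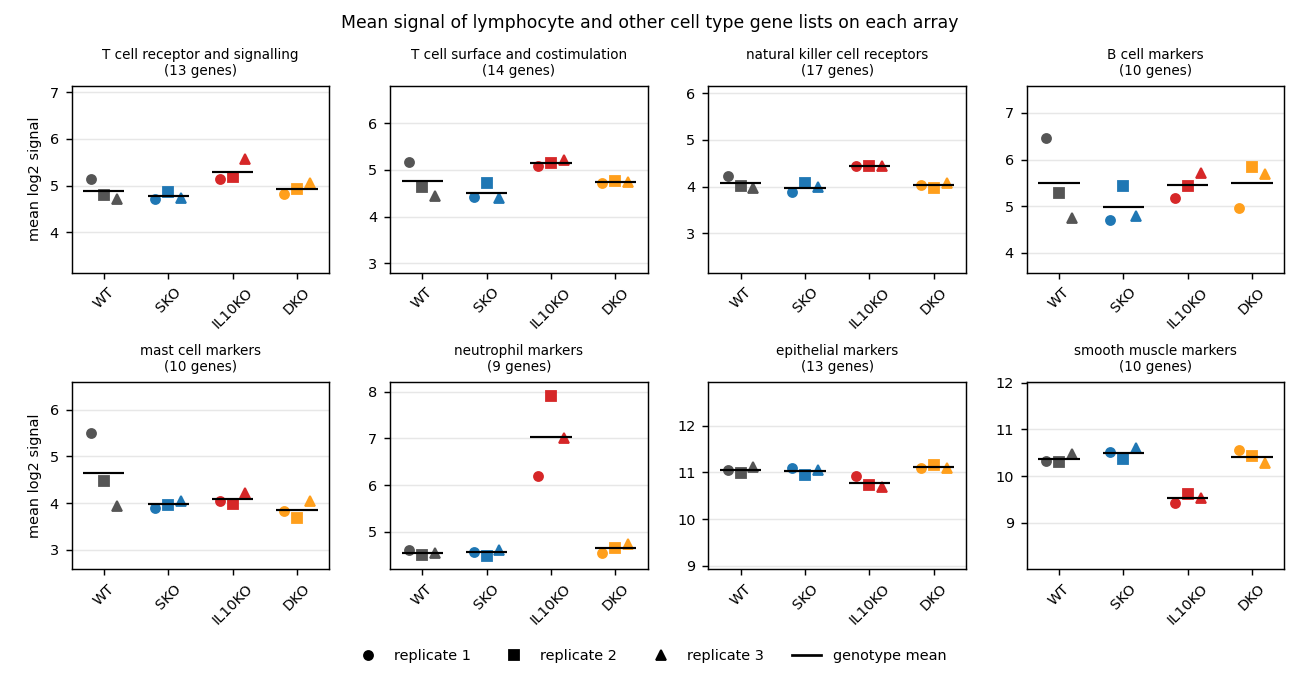
Mean log2 signal (vertical axis) of 3 lymphocyte lists and 5 lists of other cell types on each of the 12 arrays, by genotype, with a line at the genotype mean and a shape per replicate. The natural killer receptor list lies at 4.43 in all 3 IL10KO arrays and between 3.89 and 4.22 elsewhere, and WT replicate 1 has the highest B cell and mast cell means.

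Other cell types moved with the same comparisons, and their part in the differences above was not tested. Neutrophil markers averaged 6.19 to 7.92 in IL10KO and 4.49 to 4.73 elsewhere, with 8 of 9 higher in IL10KO than in WT and 8 of 9 lower in DKO than in IL10KO, all past the test. Smooth muscle markers averaged 9.42 to 9.61 in IL10KO and 10.27 to 10.60 elsewhere, with 8 of 10 lower in IL10KO than in WT past the test. Epithelial markers averaged 10.70 to 10.91 in IL10KO and 10.95 to 11.17 elsewhere, with 2 of 13 lower in IL10KO than in WT and 2 higher in DKO than in IL10KO past the test. Of 12 macrophage and monocyte markers 2 rose, with array means of 7.43 to 8.23 in IL10KO and 7.02 to 7.80 in WT. Lymphoid stroma markers, 3 measured, averaged 7.13 to 7.45 in IL10KO and 6.33 to 7.11 in WT, and none passed. None of the 10 B cell markers passed in either comparison. Squamous and sebaceous markers, 18 measured, averaged 7.03 and 7.14 in IL10KO replicates 2 and 3, 5.22 in IL10KO replicate 1 and 4.28 to 5.11 elsewhere. Of these 18, 13 rose in IL10KO against WT and 9 fell in DKO against IL10KO, past the test with all arrays. Without IL10KO replicates 2 and 3, so that 1 IL10KO array remained and was assumed to vary like the other groups, none of the 10 lymphocyte genes was called in IL10KO against WT, with Gzma at 2.14 (limma adjusted p = 0.0651) and Cd3e at 1.07 (limma adjusted p = 0.147). Of the 14 list genes called in that comparison with all arrays, Il15, Klrb1c and Cd96 passed there too and the others did not. Immature T cell markers, 4 measured, averaged 3.52 to 4.18 over all arrays, with no genotype apart.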

How the data were processed

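Colon RNA was measured on 12 arrays, 300 ng per array per the labels' protocols. The authors deposited 1 table of log2 signals for 41345 probe sets, for which the submitters' processing notes name Affymetrix Expression Console 1.3.1.187. The steps of background correction, summary and normalization were not given in the sources used here, and the log2 scale was read from the range of the values. The platform annotation gives 1 symbol for 23521 probe sets, several for 1814 and none for 16010. The brightest probe set by mean over all arrays stood for each of 22180 genes.

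Values were used as deposited. All arrays were fitted with limma 3.58.1 in R 4.3.3 (lmFit and eBayes, a mean per genotype, 8 residual and 5.56 prior degrees of freedom), 2-sided, and genes were called at a Benjamini-Hochberg adjusted p under 0.05. Genotypes came from the labels, replicates were numbered in sample order, which pairs nothing, and no label date served as a batch. The members and lists were chosen with earlier results of these data known. Genes named beside the members were those called in the lists, at most 4 per list and comparison, and the 3 with the highest correlation to each member. Alternatives were array weights, a trended and robust prior, fits of the compared genotypes alone, median centring, quantile normalization, averaged probe sets, a filter on the dimmest 33.3% of genes, and omission of each array or of WT replicates 1 and 2. Leaving out WT replicates 1 and 3, or IL10KO replicates 2 and 3, was chosen after seeing the data. Each array was left out in turn, but the fuller account without WT replicate 1 was also given with its values seen. The fit was tested on simulated data. Upstream sequences came from RefSeq, and protein sequences were not used here.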

Additional observations from a re-analysis of the deposited data

Results flagged for a closer look

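S1pr1, the sphingosine-1-phosphate receptor, had an IL-10 effect of opposite sign in the STING genotypes, 0.55 with STING and -0.12 without it. All 3 IL10KO arrays lay above the WT mean, and all 3 DKO arrays lay below the SKO mean, the highest of them only just (6.48 against 6.49). The DKO arrays (6.24 to 6.48) and the SKO arrays (6.43 to 6.59) overlapped, and DKO minus SKO did not pass limma's test (adjusted p = 0.998). The difference of -0.67 between the effects did not pass it either (adjusted p = 0.190).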

How the results depend on the processing

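Quantile normalization and the mean of probe sets left all directions and calls of the 10 members as reported. Leaving out dim genes did so for the members still tested. By mean signal, Gzma and Gzmb stood at percentiles 23.9 and 28.1 of all genes. Both lay within the share left out and were not tested there. Of the list-gene calls, leaving out dim genes tested 11 of 14 in IL10KO against WT and 5 of 7 in DKO against IL10KO. It tested 6 of 7 in the average IL-10 effect, and no tested call was lost. Ctla4, Cxcr6 and Klrb1c were too dim to be tested in IL10KO against WT, and Ctla4 and Klra9 in DKO against IL10KO. Cxcr6 was not tested in the average IL-10 effect. The WT means of Ctla4, Cxcr6 and Klrb1c were 3.75, 3.58 and 3.01, near or below the lower quartile of the arrays (3.45 to 3.72). Leaving out dim genes therefore says nothing about their calls. Cd3d lost its call under quantile normalization (limma adjusted p = 0.0518) and the mean of probe sets (limma adjusted p = 0.0503). Cd96 lost its call under quantile normalization (limma adjusted p = 0.0588). The counts depended on single arrays, and the cause was not tested. Leaving out 1 array gave these ranges. In IL10KO against WT, 783 to 3070 genes and 0 to 4 members were called, and Cd4 ran from -0.12 to 0.71, Itgae from -0.34 to 0.36, Nkg7 from -0.0057 to 0.35 and Prf1 from -0.16 to 0.084. In DKO against IL10KO, 425 to 2361 genes and 0 to 2 members were called, with Cd4 from -0.48 to 0.091 and Prf1 from -0.047 to 0.20. In DKO against SKO, 5 to 20 genes were called, with Cd4 from -0.15 to 0.25, Cd8b1 from -0.17 to 0.13, Nkg7 from -0.11 to 0.26 and Prf1 from -0.074 to 0.19. In the average IL-10 effect, 265 to 1295 genes and 0 to 4 members were called, with Cd4 from -0.023 to 0.39, Itgae from -0.084 to 0.27 and Prf1 from -0.071 to 0.075. SKO against WT called 0 to 55 genes, DKO against WT 5 to 69, the average STING effect 48 to 336 and the difference of IL-10 effects 50 to 376. Within arrays, Cd8a minus Cd4 ran from -0.077 to 0.34, Cd8b1 minus Cd8a from -0.15 to 0.0057, Gzmb minus Cd3e from -0.19 to 0.061, Klrd1 minus Cd3e from -0.25 to 0.028 and Itgae minus Cd3e from -0.68 to -0.45, where the omission of DKO replicate 3 gave an exact permutation adjusted p of 0.045.

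Median centring gave Itgae -0.018 in IL10KO against WT. Of the 14 list-gene calls in IL10KO against WT, median centring lost 6 (Cd3d, Cd3g, Cd96, Fcgr3, S1pr1 and Tyrobp, limma adjusted p up to 0.118), the trended and robust prior 2 (Cd3g and Cd96), array weights 3 (Ccl5, Cd3g and Cd96) and the fit to the compared genotypes only 13, all but Il15 (limma adjusted p from 0.0507 to 0.136). Of the 7 in DKO against IL10KO, these lost 4 (Fcgr3, Icos, S1pr1 and Tyrobp), 1 (Icos), 2 (Icos and Il15) and 6 (all but Klra9), and of the 7 in the average IL-10 effect, the first lost 4 (Ahr, Icos, Il15 and Prdm1) and the second 1 (Cd3g). The trended and robust prior called 241 genes for the average STING effect. Array weights called 85 genes in DKO against SKO (Cd4 -0.058), 28 in DKO against WT, 336 for the difference of IL-10 effects, 585 for the average STING effect, and 2143 for the average IL-10 effect with 1 member, Gzma (Prf1 0.017). With only the genotypes compared, 704 genes were called in IL10KO against WT, 41 in DKO against SKO, and 489 in DKO against IL10KO with 1 member, Gzmb; these fits have fewer arrays.

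Without WT replicates 1 and 2, 232 genes and 3 members were called in IL10KO against WT, 32 genes in DKO against SKO, 846 genes and 2 members in DKO against IL10KO, 16 genes for the difference of IL-10 effects, 284 genes and 3 members for the average IL-10 effect and 14 genes for the average STING effect. Without WT replicates 1 and 3, these were 329 genes and 3 members (Prf1 0.073, Itgae -0.098) in IL10KO against WT, 32 in DKO against SKO, 846 and 2 in DKO against IL10KO, 59 in SKO against WT, 78 in DKO against WT and 302 and 3 for the average IL-10 effect (Prf1 0.069), and Cd8a minus Cd4 was -0.048. Without IL10KO replicates 2 and 3, with 1 IL10KO array left, 2923 genes were called in IL10KO against WT (Cd4 -0.15, Prf1 0.056, Itgae -0.043), 2605 in DKO against IL10KO (Cd4 0.12, Prf1 -0.019), 689 for the difference of IL-10 effects, 1368 for the average IL-10 effect (Cd4 -0.040, Prf1 0.061) and 503 for the average STING effect, and Cd8b1 minus Cd8a was 0.025.

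With 3 arrays per genotype, the number of arrays limits the precision, and no detection calls bound the dim signals. No paired analysis was possible because the labels give the genotypes no shared replicate numbers.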
